A study of Mus musculus with 5 samples.

Results

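Serine synthesis and the folate one-carbon cycle were described through 9 genes, listed by name among 49246 genes that had a value in all 5 RNA libraries: Phgdh, Psat1 and Psph of serine synthesis, Shmt1, Shmt2, Mthfd1, Mthfd2 and Mthfd1l of the folate cycle, and the carrier Slc25a32. The libraries were made from bone marrow-derived macrophages of wild type C57BL/6 mice, differentiated from marrow for 6 days with the growth factor CSF1 or with conditioned supernatant of L929 cells. All 5 had received IL-4 at 10 ng/ml for 24 h, the cytokine that drives alternative (M2) activation. Before IL-4, 3 of them (replicates 3, 4 and 5) were given CBR-5884, which inhibits PHGDH, at 30 µM, and 2 (replicates 3 and 5) were given solvent. The comparison of IL-4 with CBR-5884 against IL-4 with solvent asks whether transcripts of the pathway differ when an inhibitor of its first enzyme is given. These RNA values hold no measure of PHGDH activity or of serine. Whether the replicates come from different mice or different dishes is not stated in the labels, and every p-value therefore describes only library-to-library spread, part of which may be technical.

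Serine can be made from an intermediate of glycolysis: PHGDH oxidises phosphoglycerate, PSAT1 transfers an amino group from glutamate to the product, and PSPH removes the phosphate. SHMT enzymes then split serine into glycine and a one-carbon unit carried on folate, in the cytosol (SHMT1) and in mitochondria (SHMT2). MTHFD2 and MTHFD1L turn the mitochondrial unit into formate, which leaves for the cytosol, where MTHFD1 puts it back on folate for purine, thymidylate and methyl group synthesis, and SLC25A32 carries folate into mitochondria. In many cell types the stress-responsive transcription factor ATF4 raises transcription of several of these genes, and one-carbon genes are known to be high in dividing cells.

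Values are FPKM, fragments normalised to transcript length and to library size, summed over the transcripts of a gene, so that levels can be compared between genes. Of the 9 genes, 7 had a mean of at least 1 FPKM and were tested, and Psph and Shmt1 were listed at 0 in every library. None of the 7 passed limma's test at an adjusted p below 0.05, a threshold that 0.223% of the 10770 genes tested passed (0.0464% higher and 0.176% lower with CBR-5884). In 6 of the 7 the log2 fold change (CBR-5884 minus solvent, on log2(FPKM + 1)) was negative, against 55.7% of all genes tested. The median of the 7 was -0.13 and that of all genes tested -0.03. The groups did not overlap, with CBR-5884 lower, for 4 of the 7 (Psat1, Shmt2, Mthfd1 and Mthfd2), against 24.9% of all genes, and with CBR-5884 higher for 1, Slc25a32, against 16.6%, so that 5 of the 7 did not overlap in either direction, against 41.5%. Overlap was judged on FPKM with no further scaling between libraries. FPKM summed over transcripts assigned to genes on either strand was higher with solvent (494546 and 527890) than with CBR-5884 (480477 to 482254). With median-ratio scaling the median log2 fold change of the 7 was -0.11 and that of all genes tested 0.004. Overlap after scaling was not counted. A library total of FPKM counts RNA from all cells together, so that fewer cells of a type and less RNA per cell cannot be told apart.

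Psat1 had 2 transcripts with separate first exons, both above 0 in every library, and the sequences of those exons show how the encoded starts differ. Both first exons carry a start codon of their own on chromosome 19 (GRCm38, minus strand, GENCODE M21), and the coding parts of the other exons are the same in both. The upstream exon (chr19:15924864-15925059) belongs to ENSMUST00000025542 and codes 60 bases at chr19:15924864-15924923. The downstream exon (chr19:15924304-15924622) belongs to ENSMUST00000162053 and codes 51 bases at chr19:15924304-15924354. The coding bases of each are given 5′ to 3′ with the start codon in capitals.
Upstream first exon: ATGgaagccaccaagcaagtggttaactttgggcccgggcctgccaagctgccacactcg
Downstream first exon: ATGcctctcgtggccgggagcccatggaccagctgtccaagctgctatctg

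The promoter windows of RefSeq (GRCm38.p6) start at the same bases as these 2 exons, and the 100 bases before each start are shown because both forms were measured above 0. They lie at chr19:15925060-15925159 for the upstream exon and chr19:15924623-15924722 for the downstream exon, both on the minus strand. The upstream stretch held 51.0% G and C with 5 CpG pairs, and the downstream stretch 70.0% with 12.
Before the upstream exon: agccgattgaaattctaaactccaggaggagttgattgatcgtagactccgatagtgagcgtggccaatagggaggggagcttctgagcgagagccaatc
Before the downstream exon: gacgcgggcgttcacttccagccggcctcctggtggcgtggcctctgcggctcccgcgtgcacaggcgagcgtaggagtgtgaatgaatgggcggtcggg

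RefSeq held 9 windows for 8 of the 9 genes, each from 250 bases before to 50 after a start, and 3 short motifs were searched on both strands. The core of the amino acid response element bound by ATF4 and C/EBP proteins, TGATGNAA, was in none of the 9 windows and in 3.97% of all 32851 windows. The E-box bound by MYC, CACGTG, was also in none and in 7.15% of all windows. The core of the antioxidant response element bound by NRF2, TGACNNNGC, was in the windows of Phgdh and Psph and in 12.4% of all windows. The match at Phgdh lay 53 to 45 bases before the start and is shown in capitals with 20 bases on each side (chr3:98339994-98340042, minus strand, the motif read on the opposite strand). A match is a description of the letters, not of binding, and letters that are absent from these windows may lie elsewhere.
Phgdh promoter: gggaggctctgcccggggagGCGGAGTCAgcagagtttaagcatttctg

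Phgdh (ENSMUSG00000053398, chr3:98313170-98339990, minus strand), which encodes the enzyme that CBR-5884 inhibits, was the lowest of the 7 genes in every library. It was at 0.888, 1.29 and 1.08 FPKM with CBR-5884 (replicates 3, 4 and 5) and at 1.15 and 1.40 with solvent (replicates 3 and 5). CBR-5884 replicate 4 lay between the solvent libraries, so the groups overlapped. The means were 1.08 ± 0.20 (SD, n = 3) and 1.28 ± 0.18 (SD, n = 2), and the log2 fold change was -0.13 with a 95% interval from -0.54 to 0.28 (limma adjusted p = 0.665). The deposited coverage of its single transcript, of 12 exons and 1893 nt, implies only 51 to 75 reads a library, a counting error of 11.5% to 14.0% of each value. No transcript was assembled at the locus. The estimates of Cufflinks carried 95% intervals of 0.63 to 1.14 FPKM in the lowest library and 1.05 to 1.75 in the highest.

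Psat1 (ENSMUSG00000024640, chr19:15904678-15947337, minus strand), the transaminase of the pathway, was the highest of the 9 genes in 4 of 5 libraries. It measured 7.46, 9.99 and 11.7 FPKM under CBR-5884 against 12.0 and 14.2 under solvent. All 3 CBR-5884 libraries lay below both solvent libraries, but replicate 5 of CBR-5884 by only a small margin. Its log2 fold change was -0.41 with a 95% interval from -0.94 to 0.12 (limma adjusted p = 0.339). Psat1 exceeded Phgdh by 7.78 to 10.9 times in the CBR-5884 libraries and by 10.1 and 10.4 times in the solvent libraries, ranges that overlapped.

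The 2 first-exon forms of Psat1 took shares that overlapped between the groups. Of the gene's FPKM, the upstream form held 53.6%, 69.2% and 41.1% under CBR-5884 (replicates 3, 4, 5) against 55.3% and 44.2% under solvent (replicates 3, 5). It was the larger form in replicates 3 and 4 and the smaller one in both libraries numbered 5. The downstream form alone measured 3.46, 3.08 and 6.91 FPKM under CBR-5884 against 5.37 and 7.95 under solvent. Beside the first exon the forms differ in where the last exon ends, and all exons between are identical.

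**Figure D1:**
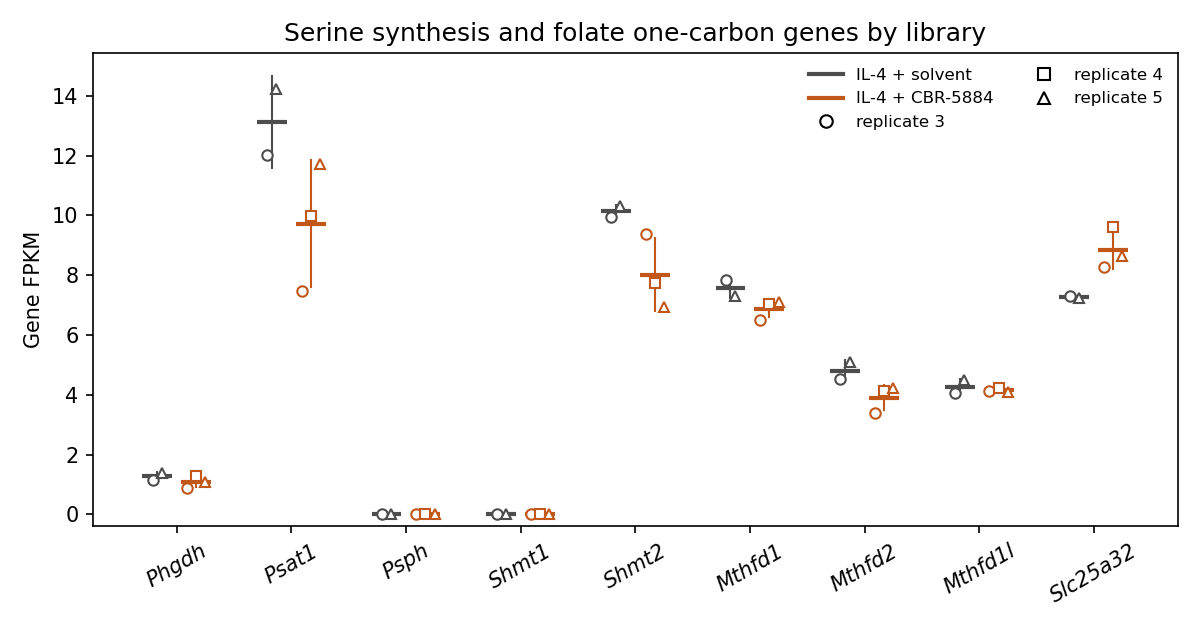
Gene FPKM (vertical axis) of the 9 genes by library: open symbols are single libraries, with the shape giving the replicate number, horizontal bars are group means and vertical lines are ± SD over n = 3 CBR-5884 and n = 2 solvent libraries. Psat1, Shmt2, Mthfd1 and Mthfd2 lay lower in every CBR-5884 library than in either solvent library, Slc25a32 lay higher, and Psph and Shmt1 were listed at 0.

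Psph (ENSMUSG00000029446, chr5:129765558-129787449, minus strand), the phosphatase of the last step, had 2 reference transcripts, both listed at 0 in all 5 libraries, and no assembled transcript. Their deposited 95% upper limits were at most 0.128 FPKM. For the transcript of 8 exons, however, the files mark full read support, which in Cufflinks means that reads covered all introns and internal exons, in 2 libraries (CBR-5884 replicate 4 and solvent replicate 5). In those libraries the listed 0 stood beside covering reads, and it cannot be read as absence of the transcript. Psph shares 452 nt of exons with Cct6a, which encodes a chaperonin subunit on the opposite strand and was at 45.3 to 52.9 FPKM.

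Shmt1 (ENSMUSG00000020534, chr11:60788104-60811718, minus strand), the cytosolic serine hydroxymethyltransferase, had 1 reference transcript, listed at 0 in all libraries with an upper limit of at most 0.0255 FPKM and full read support in none. It shares 184 nt with Smcr8 on the opposite strand, at 20.2 to 24.3 FPKM. Among protein-coding genes, 980 had exons overlapping an opposite-strand protein-coding gene of at least 10 FPKM in every library. Of these 29.8% were at 0 in every library, and of the 20805 without such an overlap 32.6%. Both shares may include genes not expressed in these cells, and whether an overlap leads to a listed 0 was not tested. Psph was counted among the 20805, because Cct6a is annotated as a processed transcript and not as protein-coding. Over all reference transcripts at 0 in a library, 12.2% were marked with full read support. There were 370 genes at 0 in some library and at 5 FPKM or more in another. No fold is given for Psph or Shmt1.

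Shmt2 (ENSMUSG00000025403, chr10:127517123-127522444, minus strand), the mitochondrial hydroxymethyltransferase, was lower with CBR-5884, and how firmly depended on the quantity summed. It measured 9.38, 7.75 and 6.93 FPKM under CBR-5884 against 9.96 and 10.3 under solvent. The groups did not overlap, and CBR-5884 replicate 3 lay closest to the solvent libraries. On the log2 scale the difference was -0.31 with a 95% interval from -0.65 to 0.03 (limma adjusted p = 0.286).

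In CBR-5884 replicate 3, 39.2% of the FPKM of Shmt2 came from an assembled transcript of 1192 nt, shorter than the reference transcript of 2305 nt, and a fragment adds more FPKM to a shorter transcript. Solvent replicate 5 had an assembled transcript of 2296 nt with 22.8% of the gene's FPKM, and no other library had one. FPKM times the transcript length in kb, called FPM here, weights a fragment equally whatever transcript it is assigned to. On that scale, chosen after the data were seen, Shmt2 measured 17.5, 17.9 and 16.0 under CBR-5884 against 23.0 and 23.7 under solvent. Relative to their mean the CBR-5884 libraries lay closer together than in FPKM, and replicate 3 no longer stood near the solvent libraries.

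By FPM Shmt2 fell, the 1 gene of the 7 called on that scale, with a log2 fold change of -0.43 (on log2(FPM + 1), SE 0.07, 95% interval -0.61 to -0.25, limma adjusted p = 0.047). By FPM 2.70% of all genes tested were called, 1.02% higher and 1.68% lower (110 and 181 genes). Those counts dropped to 6 to 31 higher and 16 to 69 lower without 1 library, and to 18 and 12 with reference transcripts only. The call of Shmt2 was lost without any 1 library (adjusted p = 0.0883 to 0.236), with median-ratio scaling (0.0536) and with reference transcripts only (0.461), while the log2 fold change stayed between -0.46 and -0.38. The reference transcript alone measured 5.70, 7.75 and 6.93 FPKM under CBR-5884 against 9.96 and 7.95 under solvent. Exons of Shmt2 share 32 nt with Ndufa4l2 on the opposite strand, which was listed at 0 in every library.

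Mthfd2 (ENSMUSG00000005667, chr6:83305691-83325908, minus strand), the mitochondrial dehydrogenase and cyclohydrolase, measured 3.38, 4.12 and 4.22 FPKM under CBR-5884 against 4.52 and 5.09 under solvent. All CBR-5884 libraries lay below both solvent libraries, and the deposited intervals of neighbouring libraries met. The log2 fold change was -0.24 with a 95% interval from -0.54 to 0.05 (limma adjusted p = 0.32). Its single transcript of 2085 nt rested on 214 to 301 implied reads a library.

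Mthfd1l (ENSMUSG00000040675, chr10:3973118-4167081, plus strand), the mitochondrial formyl-tetrahydrofolate synthetase, was the gene with the smallest difference. It measured 4.13, 4.23 and 4.11 FPKM under CBR-5884 against 4.06 and 4.49 under solvent, so that all CBR-5884 libraries lay between the solvent libraries. Its log2 fold change was -0.03 with a 95% interval from -0.22 to 0.15 (limma adjusted p = 0.822), and its sign turned with quantile normalization, on the TPM scale and without solvent replicate 5. Of its 3 reference transcripts, which differ in length, 1 was listed at 0 throughout, and the others, of 3535 and 3669 nt, had 28 exons each. The form of 3535 nt held 52.4%, 40.7% and 66.6% of the gene's FPKM with CBR-5884 and 45.3% and 80.1% with solvent. In each group its share was highest in replicate 5, as was that of the downstream form of Psat1, a likeness noticed after the values were seen and given with no test.

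**Figure D2:**
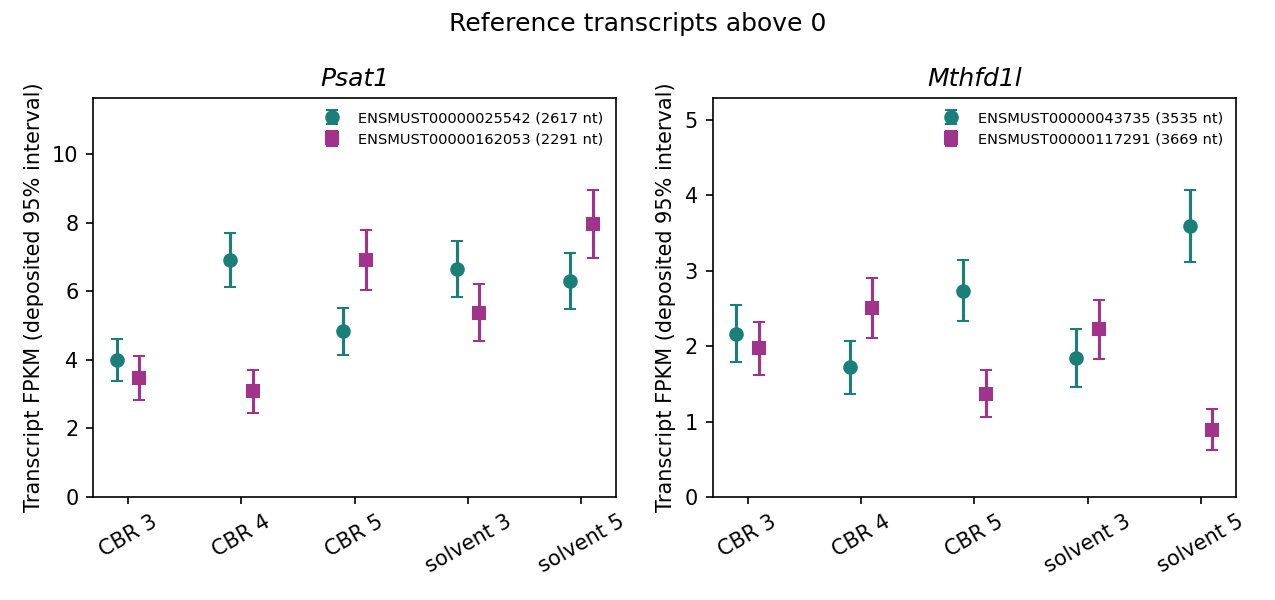
FPKM (vertical axis) of the reference transcripts of Psat1 (left) and Mthfd1l (right) that were above 0, by library; points are the deposited estimates and bars their 95% intervals, which cover error within a library only. In solvent replicate 5 the Mthfd1l form of 3535 nt was at 3.59 FPKM and that of 3669 nt at 0.89, whereas their intervals met in solvent replicate 3.

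Mthfd1 (ENSMUSG00000021048, chr12:76255298-76319803, plus strand), the cytosolic enzyme that joins formate to folate and converts the product further, measured 6.51, 7.03 and 7.09 FPKM under CBR-5884 against 7.85 and 7.32 under solvent. The groups did not overlap, with CBR-5884 replicate 5 and solvent replicate 5 nearly level. On the log2 scale the difference was -0.12 with a 95% interval from -0.30 to 0.05 (limma adjusted p = 0.375). Gm47525, annotated as a noncoding RNA of a bidirectional promoter, shares 37 nt of exons on the opposite strand and was not analysed here.

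Slc25a32 (ENSMUSG00000022299, chr15:39091231-39112716, minus strand), the mitochondrial folate carrier, was the one gene of the 7 with a positive log2 fold change. It measured 8.28, 9.61 and 8.66 FPKM under CBR-5884 against 7.29 and 7.25 under solvent. All CBR-5884 libraries lay above both solvent libraries, which nearly coincided. Group means were 8.85 ± 0.685 (SD, n = 3) and 7.27 ± 0.033 (SD, n = 2), so that CBR-5884 libraries averaged 122% of solvent. The log2 fold change was 0.25 with a 95% interval from 0.05 to 0.45 (limma adjusted p = 0.201), the lowest adjusted p of the 7 genes. At an unadjusted limma p below 0.05 it was the 1 gene of the 7, against 19.6% of all genes tested (7.24% higher and 12.4% lower).

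Between 39.8% and 58.3% of the FPKM of Slc25a32 came from a transcript of 5577 to 5907 nt that Cufflinks assembled in each of the 5 libraries, with 7 exons like the reference transcript of 2945 nt. On the FPM scale the gene measured 38.7, 39.6 and 37.8 under CBR-5884 against 31.6 and 31.8 under solvent, a wider gap than the spread within either group. The log2 fold change on that scale was 0.28 (SE 0.05, limma adjusted p = 0.0538), and 0.31 with median-ratio scaling (limma adjusted p = 0.0446), a call not made without that scaling, where leaving out 1 library gave adjusted p = 0.101 to 0.237. With reference transcripts only, FPKM was 3.45, 5.79 and 4.49 with CBR-5884 and 3.46 and 3.68 with solvent, and the groups overlapped (log2 fold change 0.27, limma adjusted p = 0.591).

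**Figure D3:**
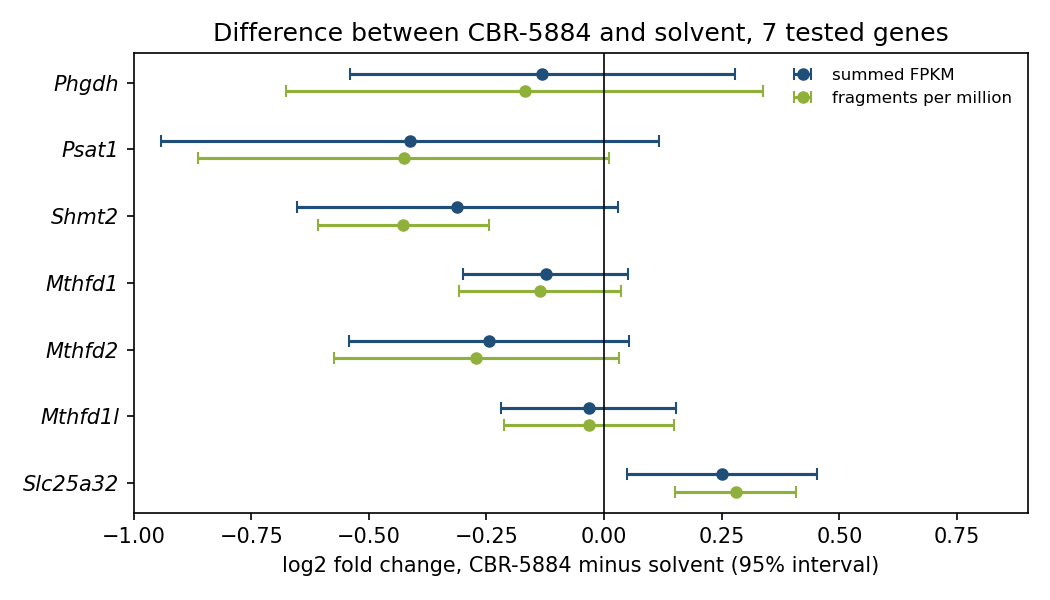
Log2 fold changes (horizontal axis, CBR-5884 minus solvent) with limma's 95% intervals for the 7 tested genes, from summed FPKM (blue) and from FPM (green, FPKM times transcript length in kb), each after adding 1. The interval of Slc25a32 lay above 0 on both scales, that of Shmt2 lay below 0 for FPM only, and the intervals of the other genes held 0 on both.

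Of the 7 genes Phgdh alone kept its place in the order of levels in all 5 libraries. Shmt2 stood first in CBR-5884 replicate 3 but below Mthfd1 in CBR-5884 replicate 5. Its first place rested on the assembled transcript of 1192 nt, and its reference transcript alone, at 5.70 FPKM, lay below Mthfd1 at 6.51. By group means, the order in the solvent libraries ran from Psat1 (13.1 ± 1.57 FPKM) through Shmt2 (10.1 ± 0.24), Mthfd1 (7.59 ± 0.38), Slc25a32 (7.27 ± 0.03), Mthfd2 (4.80 ± 0.41) and Mthfd1l (4.28 ± 0.30) to Phgdh (1.28 ± 0.18). Mthfd1 and Slc25a32 were neighbours in that order with solvent, and the lower Mthfd1 library exceeded the higher Slc25a32 library by a margin within the spread of Mthfd1. With CBR-5884 the order was Psat1 (9.73 ± 2.15), Slc25a32 (8.85 ± 0.685), Shmt2 (8.02 ± 1.25), Mthfd1 (6.88 ± 0.32), Mthfd1l (4.16 ± 0.06), Mthfd2 (3.91 ± 0.46) and Phgdh (1.08 ± 0.20). There Psat1, Slc25a32 and Shmt2 had overlapping ranges, as had Mthfd2 and Mthfd1l.

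Slc25a32 stood second in all 3 CBR-5884 libraries and below Mthfd1 in both solvent libraries. Its ratio to Shmt2 was 0.88, 1.24 and 1.25 with CBR-5884 and 0.73 and 0.70 with solvent, with no overlap. The ratio of Mthfd2 to Mthfd1l was 0.82, 0.97 and 1.03 with CBR-5884 and 1.11 and 1.13 with solvent. The summed level of the mitochondrial enzymes Shmt2, Mthfd2 and Mthfd1l was 16.9, 16.1 and 15.3 FPKM with CBR-5884 and 18.5 and 19.9 with solvent. In CBR-5884 replicate 3 the sum and the ratio to Shmt2 include the assembled Shmt2 transcript of 1192 nt. These ratios and sums were formed after the values were seen and were not tested.

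Of 16 other folate enzymes 11 were tested, with a median of -0.15 in log2 fold change, 8 of them negative and none called. The enzyme of the final steps of purine synthesis, Atic, which uses formyl folate, measured 40.6, 42.8 and 42.6 FPKM under CBR-5884 against 45.8 and 49.7 under solvent (limma adjusted p = 0.217). Aldh1l1, the cytosolic formyl-tetrahydrofolate dehydrogenase, measured 9.93, 12.1 and 10.5 under CBR-5884 against 14.4 and 11.9 under solvent, with overlap (limma adjusted p = 0.327). Ggh, which trims the glutamate tail of folates, had a log2 fold change of 0.11 (limma adjusted p = 0.517), and Qdpr, a pterin reductase, had -0.15 (limma adjusted p = 0.19). Fpgs, Aldh1l2 and Ftcd were listed at 0, Tyms was below the filter, and Mthfs was at 0 in part of the libraries.

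Of the genes of folate uptake, 3 of 4 were tested, all with negative log2 fold changes and none called. Folr2, folate receptor beta, measured 19.9, 12.3 and 23.4 FPKM under CBR-5884 against 27.3 and 25.4 under solvent. Every CBR-5884 library was lower, with a wide spread among them (log2 fold change -0.53, SE 0.28, limma adjusted p = 0.373). Slc19a1, the reduced folate carrier, and Slc46a1, the proton-coupled one, had -0.24 and -0.07 (limma adjusted p = 0.611 and 0.737). In the glycine cleavage system Dld and Gcsh had 0.03 and -0.10, and Amt and Gldc were below the filter.

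Transporters and users of serine had both signs. The 7 tested transporter genes of 10 had a median of 0.04, with 5 positive, and none was called. Sfxn3, a mitochondrial serine carrier, measured 32.8, 33.8 and 33.8 FPKM under CBR-5884 against 33.6 and 32.4 under solvent, and Slc1a5, Slc36a1 and Slc38a2 had log2 fold changes of 0.06, 0.04 and 0.13. Sfxn2 had -0.51, with solvent replicate 3 at 7.21 FPKM apart from 4.48 in solvent replicate 5 (limma adjusted p = 0.266). The 8 tested genes of serine use, of 12, had a median of 0.02, with 4 positive and none called. At an unadjusted limma p below 0.05, 3 of the 8 were higher and 0 lower, against 7.24% and 12.4% of all genes tested. By that measure the other further lists had 0 higher. Lower were 3 of 11 other folate enzymes, 3 of 14 glycolysis genes and 2 of 8 regulators. So were 4 of 13 genes of purine and thymidylate synthesis and 8 of 10 of proliferation. Folate uptake, glycine cleavage and the transporters had 0 lower. Serinc1, a membrane protein named for serine incorporation into lipids, measured 208.5, 211 and 195 FPKM under CBR-5884 against 152 and 156 under solvent (log2 fold change 0.41, SE 0.05, limma adjusted p = 0.0918). Serinc3 and Sptlc1, a subunit of the enzyme that starts sphingolipid synthesis, had 0.09 and -0.10, and Ptdss2, a phosphatidylserine synthase, had -0.81, resting on solvent replicate 5 at 18.3 FPKM against 6.42 in solvent replicate 3 (limma adjusted p = 0.372).

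Glycolysis genes, 14 of 14 tested, had a median of -0.07 with 10 negative and none called. Of the 14 genes, 4 were lower in every CBR-5884 library than in either solvent library and 0 were higher. Over all genes tested those shares were 24.9% and 16.6%. For Gapdh and Pgam1 the groups overlapped. Gapdh measured 312, 349 and 324 FPKM under CBR-5884 against 334 and 340 under solvent. Pgam1, which takes phosphoglycerate down glycolysis, had a log2 fold change of 0.09 (limma adjusted p = 0.556). Aldoa and Pkm both had 0.07, and Pfkl, a phosphofructokinase, had the most negative value, -0.28 (limma adjusted p = 0.165).

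Of 8 regulators of the pathway, all were tested, 7 had negative log2 fold changes and none was called. Atf4 measured 45.7, 48.3 and 46.0 FPKM under CBR-5884 against 46.7 and 47.5 under solvent, with a log2 fold change of -0.01 (SE 0.05, limma adjusted p = 0.901). Its groups overlapped and the difference was smaller than the spread within either group. Ddit3, a target of ATF4, measured 19.03, 14.9 and 15.9 under CBR-5884 against 18.0 and 50.8 under solvent, so that its log2 fold change of -0.84 rested on solvent replicate 5 (limma adjusted p = 0.38). Nfe2l2, which encodes NRF2, and Atf3 had -0.01 and -0.05, and Kdm4c, a histone demethylase, 0.08. The other 3 of the 8 regulators are given after their values were seen. They were lower in every CBR-5884 library than in either solvent library, as were 24.9% of all genes tested. Ehmt2, a histone methyltransferase, measured 34.1, 35.1 and 36.9 FPKM under CBR-5884 against 46.3 and 44.4 under solvent (log2 fold change -0.35, limma adjusted p = 0.119). Myc measured 12.1, 18.4 and 15.2 under CBR-5884 against 21.5 and 21.01 under solvent (log2 fold change -0.47, limma adjusted p = 0.253), and Trp53, which encodes p53, had -0.11 (limma adjusted p = 0.371).

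Genes of purine and thymidylate synthesis had a median of -0.14 over 13 tested of 16, 10 of them negative and none called. Paics measured 52.4, 53.9 and 61.0 FPKM under CBR-5884 against 56.9 and 59.2 under solvent, and Adss had a log2 fold change of 0.15 (limma adjusted p = 0.711 and 0.303). Rrm2, the S phase subunit of ribonucleotide reductase, measured 1.20, 1.65 and 2.05 under CBR-5884 against 6.15 and 6.10 under solvent (log2 fold change -1.45, SE 0.16, limma adjusted p = 0.0857). Of the proliferation genes, 10 of 10 were negative, with a median of -0.94, and 1 was called lower, against 0.176% of all genes. The called gene, Ube2c (a ubiquitin carrier active in mitosis) measured 0.514, 0.720 and 0.510 FPKM under CBR-5884 against 4.27 and 4.14 under solvent, and fell (log2 fold change -1.72, limma adjusted p = 0.0409), a call that was lost without any 1 library. Mcm5 measured 4.11, 5.12 and 4.95 FPKM under CBR-5884 against 11.3 and 12.8 under solvent, Cdk1 had -0.38, and Pcna, which acts in repair as well as replication, had -0.05 (limma adjusted p = 0.0666, 0.119 and 0.769). The part of proliferation in the levels of the one-carbon genes was not tested.

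**Figure D4:**
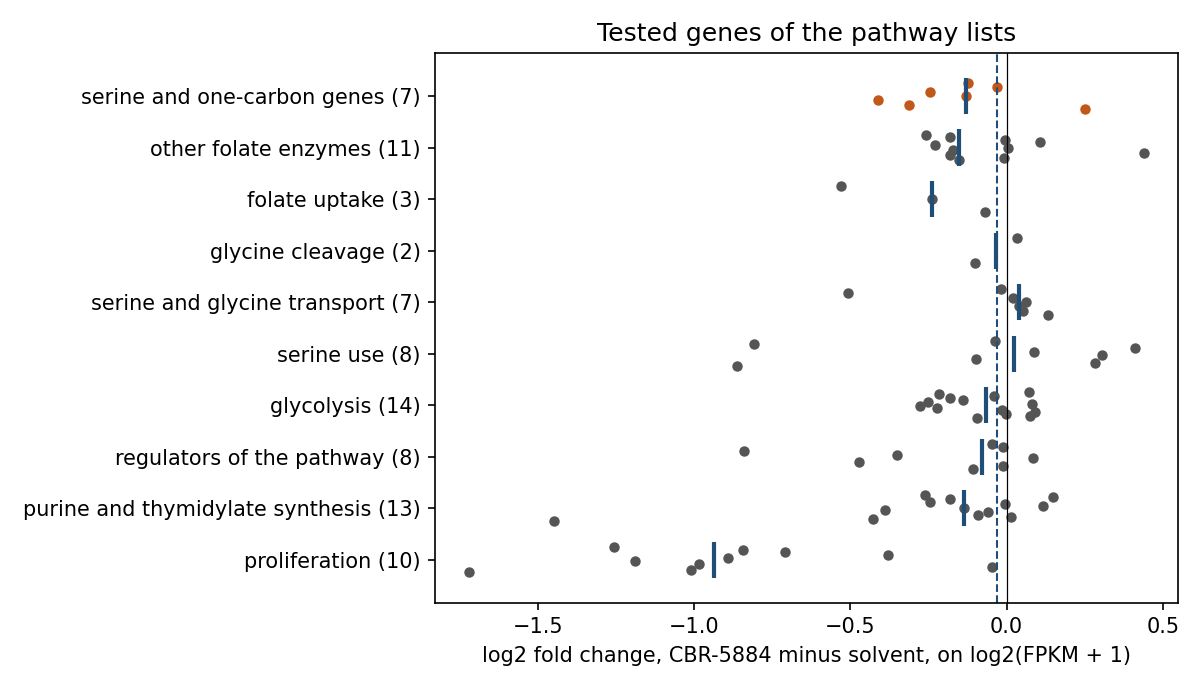
Log2 fold changes (horizontal axis, on log2(FPKM + 1), CBR-5884 minus solvent) of every tested gene in the 10 lists, with the number tested in parentheses; each point is a gene, solid bars are list medians and the dashed line is the median of all genes tested, -0.03. The serine and one-carbon genes lay between -0.41 and 0.25, while the proliferation genes lay between -1.72 and -0.05.

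By the root mean square difference of centred log2(FPKM + 1) over the 5 libraries, the genes nearest in pattern among 7723 were Cd72 and Axl for Psat1 (0.06 and 0.07, median over genes 0.29), Smim4 and Pold2 for Shmt2 (0.04 each, median 0.22), Chd4 and Ahrr for Mthfd1 (0.01 each, median 0.13) and Agap1 and Pqlc3 for Slc25a32 (0.02 each, median 0.19). Axl, for example, measured 37.8, 43.6 and 52.8 FPKM under CBR-5884 against 51.4 and 63.1 under solvent. As for Psat1 it was lowest in CBR-5884 replicate 3 and highest in solvent replicate 5, a likeness for which it was picked from these same libraries. Unlike Psat1 its groups overlapped, with CBR-5884 replicate 5 above solvent replicate 3.

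All 8 macrophage markers were detected, with a summed level of 9888 to 13260 FPKM with CBR-5884 and 11207 to 13276 with solvent, most of it Lyz2 (6964 to 10378 over all libraries). Cd68 and Itgam were higher in every CBR-5884 library than in either solvent library (log2 fold change 0.19 and 0.30, limma adjusted p = 0.132 and 0.182), and Mrc1 and Fcgr1 lower (-0.20 and -0.45, limma adjusted p = 0.381 and 0.333). Over all genes tested, 16.6% were higher and 24.9% lower in every CBR-5884 library than in either solvent library. Erythroid markers were at 0 (5 of 5), and the summed levels of lymphocyte and mast cell markers were at most 0.17 FPKM, with Cd3e, Cd3d and Nkg7, and Mcpt4, Tpsb2 and Cma1, at 0. The 7 neutrophil markers summed to 10.4 to 12.9 FPKM with CBR-5884 and 10.0 to 20.7 with solvent, with Ly6g at 0. The 6 fibroblast markers summed to 10.8 to 17.1 with CBR-5884 and 17.9 to 18.9 with solvent, and the 5 dendritic cell markers to 0.61 to 1.21 and 1.35 to 2.33, with no marker of either list at 0 throughout. The summed fibroblast and dendritic cell levels were lower in every CBR-5884 library than in either solvent library. No marker that was tested was called, and their part in the values of the one-carbon genes was not tested.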

How the data were processed

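Total RNA of 5 libraries was prepared with a directional kit and read in single 75 bp reads, per the labels' protocols. The submitters' processing notes name Bowtie2, TopHat2, Cufflinks and the builds mm10 and GRCm38. Tool versions, the annotation release and the strand option are not stated there. The deposited values are FPKM that the authors' Cufflinks run estimated per transcript in each library on its own, for Ensembl reference transcripts and transcripts assembled from the reads, and no normalization between libraries is recorded.

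GENCODE M21 gave the gene of each reference transcript and matched 70923 of 71311. Assembled transcripts of at least 200 nt were added to the gene on their strand that held at least 50% of their exonic bases, and FPKM was summed per gene. Genes with a mean of at least 1 FPKM were fitted with limma 3.58.1 in R 4.3.3 (two-sided, moderated with a trended variance) on log2(FPKM + 1), which understates changes of low genes, with 3 residual degrees of freedom and Benjamini-Hochberg adjustment over all genes tested. The code of the fit was tried on data simulated for genes above 0 in every library. Genes at 0 in some library, which the reported fit includes, were left out of that trial. The ratio of deposited coverage to FPKM implies 28310000 to 28850000 fragments in each solvent library and 30230000 to 30700000 in the others, and counting errors cover sampling of reads only. An FPKM of 0 can be a failed estimate. Libraries correlated at 0.925 to 0.937 within groups and 0.911 to 0.928 between groups (Pearson's r of log2(FPKM + 1) across genes, which are not independent).

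All 9 members are named; from each further list the 3 genes with the highest mean FPKM, called genes, and the gene with the largest log2 fold change in each direction above 0 in every library; and the 2 genes most like each member of at least 5 FPKM. The members, lists and alternatives were chosen with earlier results of these data known. Protein sequences were not compared here, although that had been planned. A further gene of the lists is not reported here.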

Additional observations from a re-analysis of the deposited data

How the results depend on the processing

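Over 19 alternatives (pseudocounts, filters, scalings, transcript choices, variance models, the replicate block and each library left out) limma called none of the 7 genes, and at an unadjusted p below 0.05 called 1 in the fit reported. Directions held throughout except for Mthfd1l, at 0.0073 with quantile normalization and 0.0036 on the TPM scale; without 1 library it ran from -0.090 to 0.026 (positive without solvent replicate 5), and was 0.026 without that library by FPM too. FPM (FPKM times transcript length in kb) and genes above 0 in every library were added after the data were seen. Over all genes, 5 were called higher and 19 lower. Without 1 library the counts were 8 to 11 higher and 11 to 78 lower, where a lone solvent library is assumed to vary like the others. Higher calls numbered 3 with a pseudocount of 5, 3 with a mean FPKM of at least 5, 3 with any exonic overlap, 19 with reference transcripts only and 15 with the most abundant reference transcript. Lower calls numbered 33 with no filter and 6 with a mean FPKM of at least 5. By FPM 110 were called higher and 181 lower, but 6 to 31 and 16 to 69 without 1 library (least without solvent replicate 5), 18 and 12 with reference transcripts only, and 132 and 130 with median-ratio scaling. The 110 and 181 included 1 of the 7 genes (Shmt2, -0.43), and Slc25a32 was called (0.31) with median-ratio scaling. Without that scaling the FPM calls also held 2 of 8 tested genes of serine use and 1 of 8 regulators. They further held 2 of 13 genes of purine and thymidylate synthesis and 7 of 10 of proliferation. Over all genes tested the share called by FPM was 2.70%. These list counts join both directions and were not repeated without 1 library. Among genes above 0 in every library 0 were called higher and 1 lower by limma (742 and 1341 at an unadjusted p below 0.05).

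The replicate numbers 3 and 5 occur in both groups but nothing says that they pair samples. Deviations from the group means correlated at 0.07 and 0.08 across genes between libraries with the same number, and at -0.08 to 0.02 otherwise. Deviations of the 2 solvent libraries mirror each other, so these values are not independent and cannot decide on pairing. With the replicate block on replicates 3 and 5, 2 genes were called higher and 1 lower. The proliferation count of 1 became 0 with the replicate block, without any 1 library, with a mean FPKM of at least 5 (where Ube2c is not tested), quantile normalization, either choice of reference transcripts, and genes above 0 in every library; the cause was not tested. Without solvent replicate 3, 1 gene of serine use was called, and without any other library 0. The share of higher genes at an unadjusted p below 0.05 was 36.9%, and 52.2% with median-ratio scaling, 55.2% with quantile normalization and 54.5% on the TPM scale. Depth limits Phgdh most.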
